A study of Mus musculus with 4 samples.

Results

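The genes described here encode the nuclear pore complex and the karyopherins, the carriers that pass through it. They are the genes whose symbol begins with Nup or Nupl and a digit (nucleoporins), Kpna, Kpnb, Ipo or Tnpo (importins and transportins) or Xpo (exportins). Of 11728 genes named once in both sets of libraries, 41 were members, 20 nucleoporins and 21 karyopherins, and all 41 were among the 10261 genes tested. The members were found by symbol and not by their values. Nup210l had several loci in set 2, Nup62cl was merged with a neighbour there, and Nup62 was merged with neighbours in both sets, so these could not be paired.

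RNA was measured in Chd1-/- and Control mouse embryonic stem cells. Chd1 is a chromatin remodeling enzyme that acts on transcribed genes and uses ATP. All cells were Rosa26CreER;Chd1fl/-, with a tamoxifen-inducible Cre, 1 floxed Chd1 allele and 1 null allele. The Chd1-/- cells had received 1 µM tamoxifen for 48 to 72 h, and the Control cells ethanol, so that Control cells kept 1 functional allele. Tamoxifen was then withdrawn for 3 to 5 passages in medium with serum and LIF. Equal numbers of live cells were taken per library, and 92 ERCC spike-in transcripts were added to their RNA. Each of 2 sets held 1 Chd1-/- and 1 Control library (n = 2 per group). The protocol names 2 independently derived lines but does not tie a set to a line, and nothing says whether the sets were separate cultures beyond that. P-values therefore speak for these samples only. They rest on a spread shared among genes of similar level, to which a gene's own spread between the samples adds only as 1 gene among many.

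Chd1 stood at 5.71 and 8.52 FPKM in Chd1-/- cells of sets 1 and 2, against 27.6 and 17.9 FPKM in Control cells, that is, at 20.7% and 47.7% of Control. FPKM is the number of fragments scaled to transcript length and to sequencing depth. Summed over all loci, the deposited values came to 467000 and 518000 in Chd1-/- cells, against 584500 and 719500 in Control cells. All 9 embryonic stem cell markers checked were listed in both sets, and they summed to 2093 and 1991 FPKM in Chd1-/- cells, against 2865 and 3554 FPKM in Control cells. Of 7 fibroblast markers 5 were listed in both sets and Postn in set 2 alone. Those listed summed to 1.97 and 4.53 FPKM in Chd1-/- cells, against 2.77 and 9.45 FPKM in Control cells. Higher in Chd1-/- cells were Col1a2, Col3a1 and Lox in set 1 and Lox in set 2, and the others listed were lower. Of 7 primitive endoderm markers 2 were listed in both sets and Gata6 in set 2 alone. Their sums were 0.451 and 1.67 FPKM in Chd1-/- cells, against 0.709 and 2.57 FPKM in Control cells. Gata4 was higher in Chd1-/- cells in set 2, and the other values listed were lower. Neither of 2 blood markers was listed. The 5 neural markers summed to 18.5 and 18.7 FPKM in Chd1-/- cells, against 40.1 and 28.6 FPKM in Control cells, and most of that was the tubulin Tubb3. All 5 were lower in Chd1-/- cells in set 1. In set 2 Neurod1 and Tubb3 were lower. Sox1, Pax6 and Map2 were higher there, at 2.69, 1.28 and 1.425 FPKM in Chd1-/- cells, against 2.19, 1.085 and 1.04 FPKM in Control cells. The part of these markers in the results was not tested. In bulk samples like these, fewer cells of a type and less RNA per cell cannot be told apart.

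Nuclear pores are the channels through which proteins and RNA cross the nuclear envelope. A ring-shaped scaffold, made of an outer ring (the Y complex) and an inner ring, holds nucleoporins with phenylalanine-glycine repeats that fill the channel, with filaments on the cytoplasmic side and a basket on the nuclear side. Importins bind cargo in the cytoplasm and release it in the nucleus on binding the small GTPase Ran in its GTP form, whereas exportins bind cargo together with Ran-GTP. Importin alpha proteins are adaptors that link classical nuclear localization signals to importin beta, encoded by Kpnb1.

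On the deposited scale 38 of 41 members had lower levels in Chd1-/- cells in both sets (92.7% of members, against 72.4% of all genes tested), whereas after scaling every library to its total 4 of 41 did. Of the others, 3 had opposite signs in the sets (24.8% of all genes) and 0 were higher in both (2.81% of all genes). The members together summed to 2126 and 2195 FPKM in Chd1-/- cells of sets 1 and 2, against 2931 and 2908 FPKM in Control cells. The ratios of these sums were 0.725 and 0.755. The sum made up 0.455% and 0.424% of all FPKM in Chd1-/- libraries, against 0.502% and 0.404% in Control libraries, so the share was lower in Chd1-/- cells in set 1 and higher in set 2.

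The median member had a log2 ratio of Chd1-/- over Control of -0.51 in set 1 and -0.31 in set 2 on the log2(FPKM + 0.1) scale, on which changes of genes with low values come out too small. The mean of these medians was -0.41 ± 0.14 (SD, n = 2 sets). The median of all genes tested was -0.46 in set 1 and -0.33 in set 2, with a mean of -0.39 ± 0.093 (SD, n = 2 sets). The members' median minus that of all genes was -0.054 in set 1 and 0.018 in set 2. After division by library totals the members' medians were -0.19 in set 1 and 0.16 in set 2, against -0.14 and 0.14 for all genes.

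The members were spread less widely than all genes, and more clearly so in set 2. Their middle 50% of log2 ratios ran from -0.73 to -0.32 in set 1 and from -0.40 to -0.25 in set 2, whereas those of all genes ran from -0.82 to -0.18 and from -0.56 to -0.10. Members were also more abundant than the average gene, with a median level of 34.5 FPKM against 9.07 FPKM for all genes tested. Among the 6795 genes within the members' own range of level, 4.94 to 668 FPKM, the interquartile range was 0.50 in set 1 and 0.39 in set 2, against 0.41 and 0.15 for the members. No member was at least 1.5-fold lower in both sets, where 10.2% of all genes were, a share not computed within the members' range of level. In set 2 Ipo7 stood at 67.2% of Control and Ipo9 at 67.8%, close to that limit. Both Chd1-/- values lay below both Control values for 31 of 41 members, against 52.6% of all genes and 3835 of the 6795 genes within the members' range.

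Single genes were tested with limma, an empirical Bayes linear model that took set as a block, at an adjusted p of 0.05 (Benjamini-Hochberg over all 10261 genes). On the deposited scale 7 of 41 members fell (17.1% of members), against 9.80% of all genes tested, and 13.5% of genes within the members' range of level. They were the importins Ipo9, Ipo7 and Ipo5, the importin alpha gene Kpna2 and the nucleoporin genes Nup98, Nup188 and Nup160. In limma 0 members rose, against 0.0682% of all genes, with 0 also at an unadjusted p under 0.05 (0.263% of all genes). At that unadjusted threshold 25 of 41 members were lower, against 28.9% of all genes. These calls rest on a variance that limma shares among genes of similar level. With one common prior variance, without the block, and with library totals 0 members passed (lowest adjusted p among members 0.290, 0.461 and 0.585). Of all genes 0%, 0% and 0.361% fell under these settings.

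**Figure D1:**
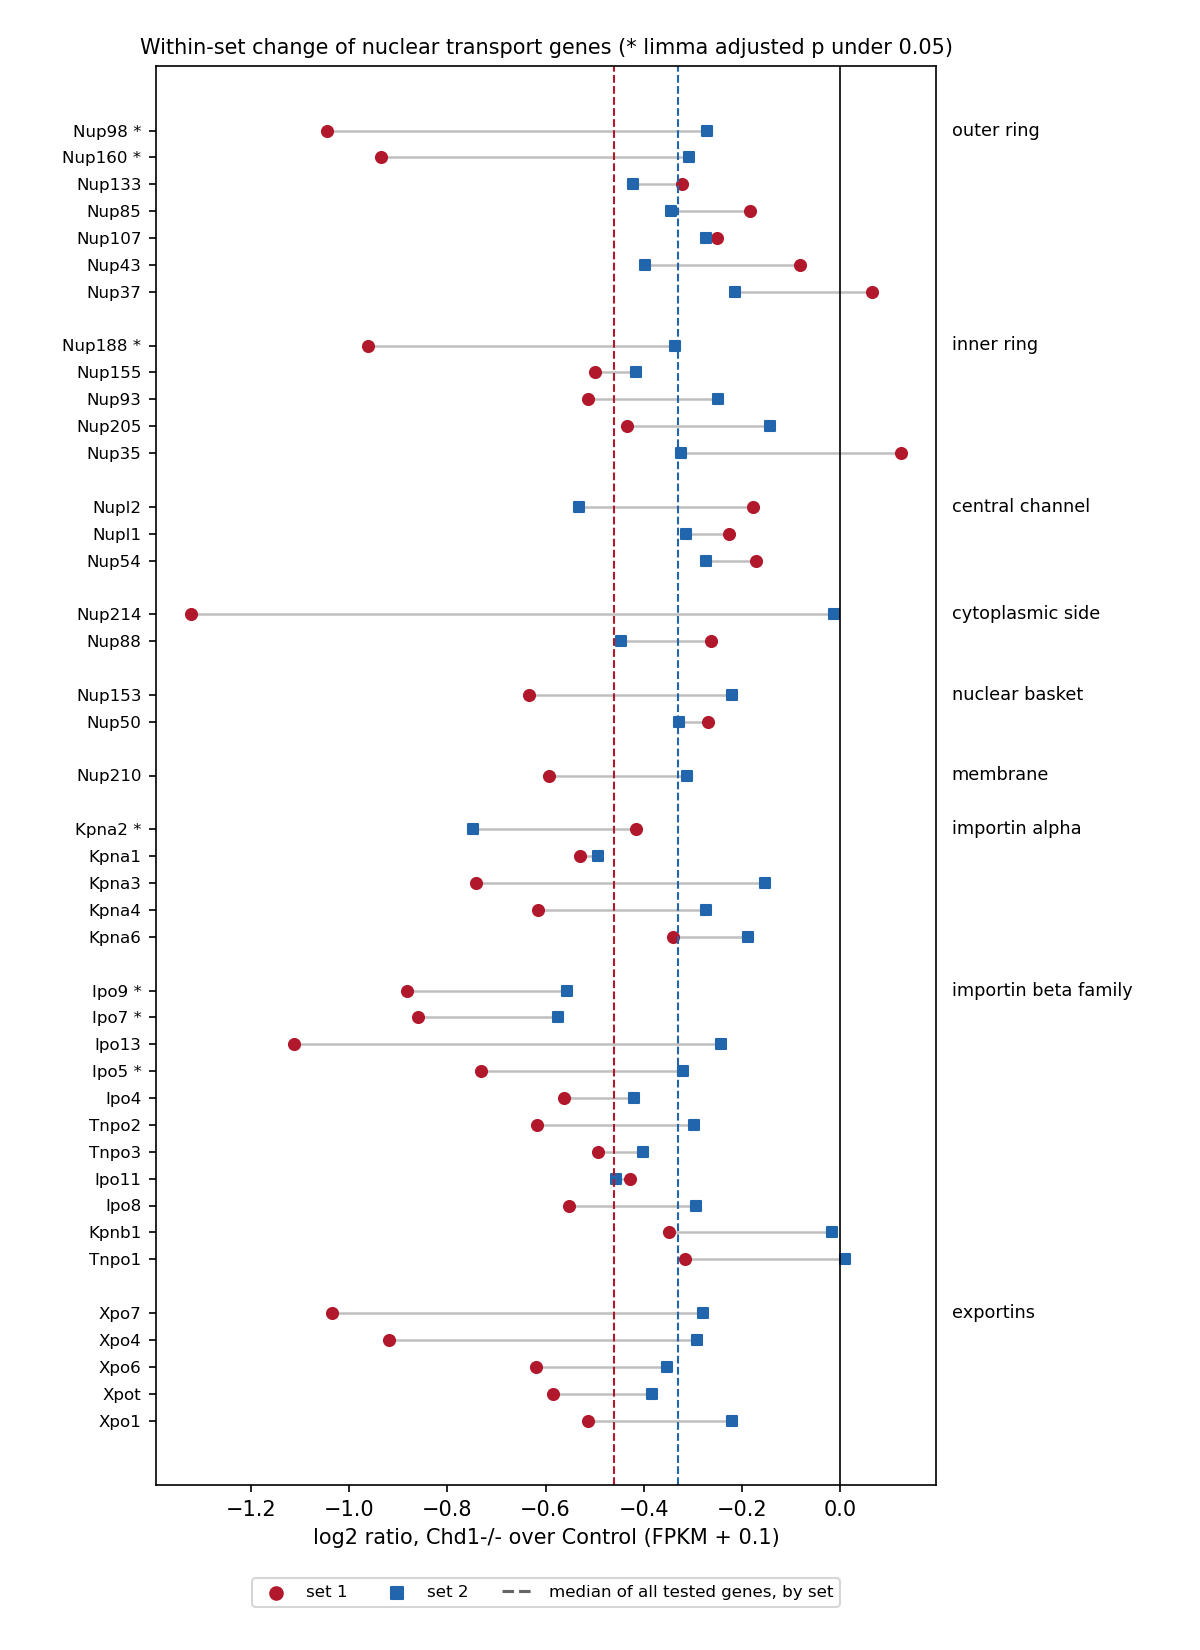
Log2 ratio of Chd1-/- over Control for each of the 41 members in set 1 (circles) and set 2 (squares), grouped by role, with the medians of all tested genes as dashed lines and asterisks at the 7 genes that fell. On this deposited scale 38 members lie left of 0 in both sets, where 4 do with library totals, and in set 2 most lie close to the dashed line at -0.33.

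Among the 20 nucleoporins 3 fell (15%), against 9.80% of all genes and 13.5% of genes within the members' range of level. Lower in both sets were 18 (90%), against 72.4% and 76.9%. Set 1 gave a median of -0.30 on the log2 scale and set 2 of -0.31. Of 7 outer-ring genes 2 fell (28.6%, against 9.80% of all genes). Nup98, which encodes both a channel nucleoporin and the outer-ring protein Nup96, stood at 18.7 and 20.9 FPKM in Chd1-/- cells of sets 1 and 2, against 38.6 and 25.3 FPKM in Control cells. The groups did not overlap, but Control cells of set 1 stood well above those of set 2. Its log2 fold change was -0.66 (limma SE 0.21, adjusted p = 0.0233), with -1.05 in set 1 and -0.27 in set 2.

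Nup160, a scaffold protein of the outer ring, stood at 26.1 and 31.8 FPKM in Chd1-/- cells, against 49.96 and 39.4 FPKM in Control cells. The log2 fold change was -0.62 (limma SE 0.19, adjusted p = 0.0214), with no overlap between groups and the larger difference in set 1. Nup37, a small outer-ring protein, was at 49.5 and 49.96 FPKM in Chd1-/- cells and at 47.4 and 58.0 FPKM in Control cells, so the groups overlapped. Its log2 fold change of -0.07 (adjusted p = 0.770) was the closest to 0 of all members on this scale. Nup107 had almost the same ratio in both sets, with 41.9 and 37.8 FPKM in Chd1-/- cells and 49.9 and 45.7 FPKM in Control cells. Its log2 ratios were -0.25 and -0.27, and it did not pass the test (adjusted p = 0.318). The log2 fold changes of Nup133, Nup85 and Nup43 ran from -0.37 to -0.24 without passing.

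Of 5 inner-ring genes 1 fell (20%, against 9.80% of all genes). Nup188, a partner of Nup93 in the inner ring, stood at 21.2 and 30.1 FPKM in Chd1-/- cells, against 41.5 and 38.0 FPKM in Control cells. The groups did not overlap, and the log2 fold change was -0.65 (SE 0.20, adjusted p = 0.0184). Nup35, which binds membranes, was at 14.1 and 11.5 FPKM in Chd1-/- cells and at 12.97 and 14.4 FPKM in Control cells, higher in Chd1-/- cells in set 1 and lower in set 2. The log2 fold change was -0.10 (adjusted p = 0.770). Nup155, Nup93 and Nup205 had log2 fold changes of -0.46, -0.38 and -0.29 and did not pass.

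None of the 8 other nucleoporin genes passed in limma, where 9.80% of all genes fell. Of the 8, 2 had an unadjusted p under 0.05 (28.9% of all genes were lower at that p). Nup214, on the cytoplasmic side of the pore, was the lowest member, with 3.10 and 4.36 FPKM in Chd1-/- cells and 7.90 and 4.399 FPKM in Control cells. Its sets differed more than those of any other member, with log2 ratios of -1.32 and -0.012 and an adjusted p of 0.195. Its partner Nup88 had log2 ratios of -0.26 and -0.45. Of the basket genes, Nup153 had -0.63 and -0.22, while Nup50 was at 33.3 and 27.02 FPKM in Chd1-/- cells and at 40.1 and 33.9 FPKM in Control cells, a log2 ratio of -0.27 in set 1 and -0.33 in set 2. Nup54, Nupl1 and Nupl2, genes of phenylalanine-glycine nucleoporins, were grouped here as central channel, a name that need not hold for Nupl2. They had log2 fold changes of -0.22 to -0.36. Nupl2, the lowest member after Nup214, had 7.43 and 4.30 FPKM in Chd1-/- cells and 8.42 and 6.26 FPKM in Control cells. For the membrane nucleoporin Nup210 it was -0.45 (adjusted p = 0.221).

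Among the 21 karyopherins 4 fell (19.05%), against 9.80% of all genes and 13.5% of genes within the members' range of level. Lower in both sets were 20 (95.2%), against 72.4% and 76.9%. Set 1 gave a median of -0.58 on the log2 scale and set 2 of -0.30, so they lay below the nucleoporins in set 1 and beside them in set 2. This difference between the families was not tested. Of 5 importin alpha genes 1 fell (20%, against 9.80% of all genes). Kpna2 was the most abundant member, at 558 and 511 FPKM in Chd1-/- cells, against 745 and 858 FPKM in Control cells. The groups lay far apart, and the log2 fold change was -0.58 (SE 0.18, adjusted p = 0.0247). Unlike the other 6 genes that fell, Kpna2 had the larger difference in set 2, with log2 ratios of -0.42 in set 1 and -0.75 in set 2.

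Kpna1 changed alike in the sets, with 21.7 and 21.0 FPKM in Chd1-/- cells and 31.4 and 29.7 FPKM in Control cells. Its log2 ratios were -0.53 and -0.49, and its adjusted p was 0.0814. The other importin alpha genes Kpna3, Kpna4 and Kpna6 had log2 fold changes of -0.45, -0.44 and -0.26 without passing. All 5 had both Chd1-/- values below both Control values, as 52.6% of all genes did.

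Of 11 importin beta family genes 3 fell (27.3%, against 9.80% of all genes). Ipo7, which imports ribosomal proteins and linker histones, stood at 69.7 and 80.0 FPKM in Chd1-/- cells, against 126.6 and 119.1 FPKM in Control cells. Its log2 fold change of -0.72 (SE 0.17, adjusted p = 0.00202) had the lowest p of the members. The log2 ratios were -0.86 in set 1 and -0.57 in set 2. Ipo7 was also the 1 member that fell when only genes with a mean of at least 5 FPKM were tested (adjusted p = 0.0461).

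Ipo9, an importer of core histones, stood at 12.4 and 11.9 FPKM in Chd1-/- cells, against 22.9 and 17.6 FPKM in Control cells, a log2 fold change of -0.72 (limma SE 0.23, adjusted p = 0.0279). Its Chd1-/- values were alike, while Control was higher in set 1. Ipo5, a relative that carries ribosomal proteins and histones, stood at 96.6 and 93.0 FPKM in Chd1-/- cells, against 160.4 and 116.1 FPKM in Control cells. It fell by 0.53 (SE 0.17, adjusted p = 0.0294), again with the larger difference in set 1.

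**Figure D2:**
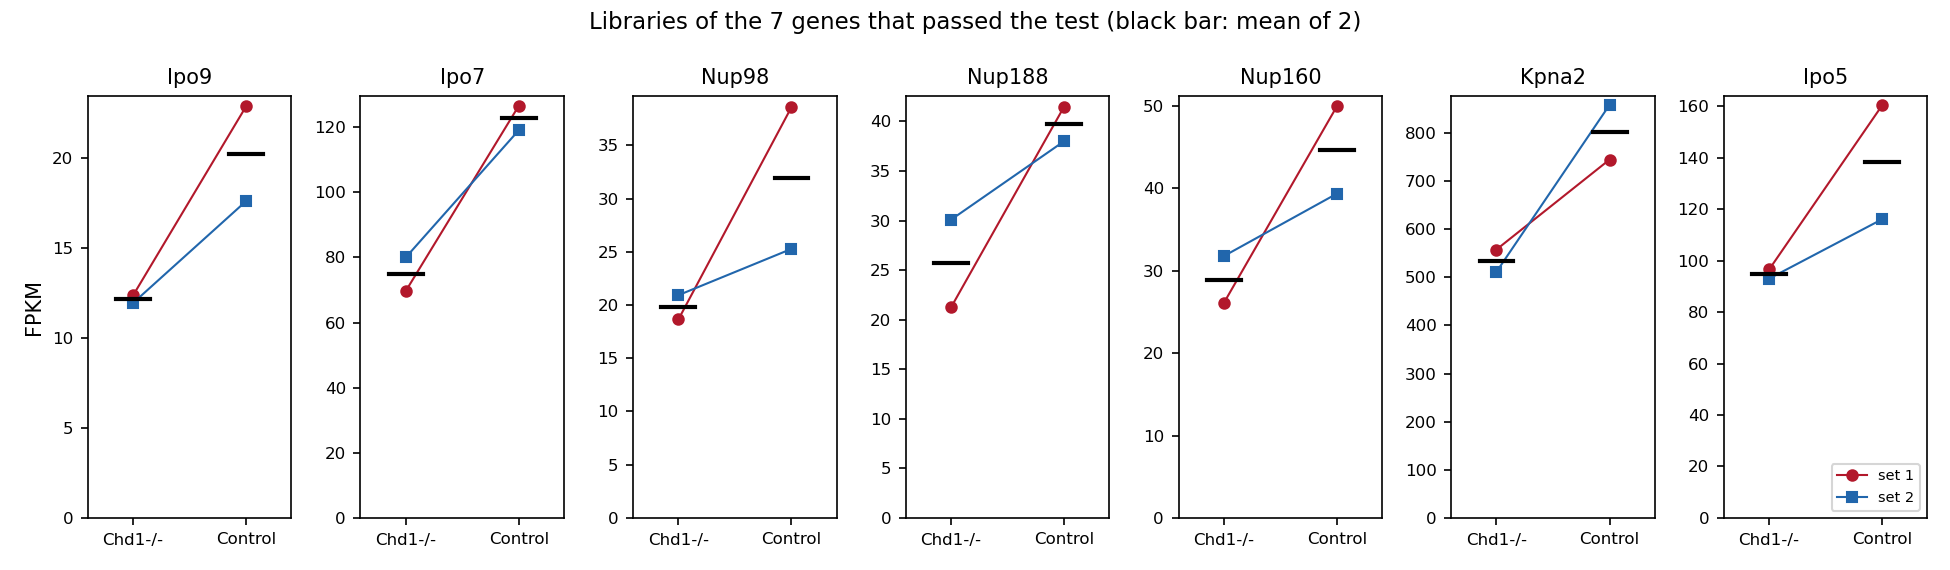
FPKM in each library of the 7 members that fell, with Chd1-/- left of Control, lines joining the libraries of a set and black bars for group means (n = 2). On this deposited scale both Chd1-/- values lie below both Control values in each panel, while 0 of these genes pass with library totals, and Kpna2 alone has the higher Control value in set 2 (858 FPKM, against 745 FPKM in set 1).

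Ipo13, which moves cargo in both directions, was at 6.38 and 7.62 FPKM in Chd1-/- cells and at 13.9 and 9.03 FPKM in Control cells. Its log2 fold change of -0.68 did not pass (adjusted p = 0.0913), and its log2 ratios of -1.11 and -0.24 differed widely. Kpnb1, importin beta itself and the second most abundant member, was at 179 and 195.5 FPKM in Chd1-/- cells and at 228 and 198 FPKM in Control cells. Its log2 ratios were -0.35 in set 1 and -0.017 in set 2, and its adjusted p was 0.442. In set 2 Kpna2 stood at 59.6% of Control, and Kpnb1, its partner in import, at 98.8%. In set 1 these genes were close, at 74.9% for Kpna2 and 78.6% for Kpnb1.

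Tnpo1, the transportin that imports hnRNP proteins, was at 60.3 and 68.3 FPKM in Chd1-/- cells and at 75.2 and 67.8 FPKM in Control cells. The groups overlapped, and its log2 ratios were -0.32 and 0.010 (adjusted p = 0.531). Ipo11 was at 38.0 and 29.7 FPKM in Chd1-/- cells and at 51.1 and 40.8 FPKM in Control cells, with log2 ratios of -0.43 and -0.46 and an adjusted p of 0.103. The other 4 genes of the family, Ipo4, Ipo8, Tnpo2 and Tnpo3, had log2 fold changes between -0.49 and -0.42. None of these 4 passed in limma, where 9.80% of all genes fell. Each had an unadjusted p under 0.05 (28.9% of all genes were lower at that p).

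None of 5 exportins passed the adjusted threshold in limma, where 9.80% of all genes fell. All 5 had an unadjusted p under 0.05 (28.9% of all genes were lower at that p) and no overlap between groups (52.6% of all). Xpo1, which exports proteins with leucine-rich signals, was the third most abundant member, at 106.9 and 128 FPKM in Chd1-/- cells and at 153 and 149.5 FPKM in Control cells. The log2 fold change was -0.37 (adjusted p = 0.134). Xpo7 was at 5.99 and 7.14 FPKM in Chd1-/- cells and at 12.4 and 8.68 FPKM in Control cells, with log2 ratios of -1.03 and -0.28 (adjusted p = 0.111). For Xpo4 the log2 fold change was -0.61 (adjusted p = 0.0598). The tRNA exporter Xpot had -0.48 (adjusted p = 0.0545), and the actin exporter Xpo6 had -0.49 (adjusted p = 0.106).

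The promoters of Ipo7, Nup188, Kpna2 and Nup37 are shown because these genes fell with the lowest p, fell in the inner ring, were most abundant, and changed least. They are 300-base windows around the RefSeq start on build GRCm38.p6, which is not the build of the deposited values (mm9), 5′ to 3′ on the gene's strand. They lie at chr7:110018065-110018364 (+), chr2:30286166-30286465 (+), chr11:106999476-106999775 (-) and chr10:88146742-88147041 (+). Capitals mark matches on either strand to any of 6 motifs, none of which contains another. The motifs are the palindromic NRF1 motif, the ETS core CCGGAAG, the GC box GGGCGG, the CCAAT box, the E-box CACGTG and the TATA box TATAAA.
Ipo7: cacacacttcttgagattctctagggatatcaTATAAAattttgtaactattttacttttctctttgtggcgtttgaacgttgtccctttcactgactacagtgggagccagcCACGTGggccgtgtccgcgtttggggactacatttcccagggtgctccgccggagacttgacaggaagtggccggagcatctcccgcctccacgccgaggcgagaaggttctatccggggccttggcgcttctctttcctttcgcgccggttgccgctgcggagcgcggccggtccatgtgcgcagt
Nup188: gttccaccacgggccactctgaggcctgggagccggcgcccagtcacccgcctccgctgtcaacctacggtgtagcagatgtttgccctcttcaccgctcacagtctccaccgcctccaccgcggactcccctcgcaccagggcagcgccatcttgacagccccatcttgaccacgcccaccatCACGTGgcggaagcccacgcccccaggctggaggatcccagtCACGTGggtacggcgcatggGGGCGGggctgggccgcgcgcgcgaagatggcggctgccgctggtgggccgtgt
Kpna2: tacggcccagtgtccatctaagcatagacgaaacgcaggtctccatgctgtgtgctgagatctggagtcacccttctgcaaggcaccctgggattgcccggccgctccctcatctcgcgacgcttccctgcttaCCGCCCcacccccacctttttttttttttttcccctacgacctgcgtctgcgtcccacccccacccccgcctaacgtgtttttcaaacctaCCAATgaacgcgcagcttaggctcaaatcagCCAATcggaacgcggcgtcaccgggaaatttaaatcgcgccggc
Nup37: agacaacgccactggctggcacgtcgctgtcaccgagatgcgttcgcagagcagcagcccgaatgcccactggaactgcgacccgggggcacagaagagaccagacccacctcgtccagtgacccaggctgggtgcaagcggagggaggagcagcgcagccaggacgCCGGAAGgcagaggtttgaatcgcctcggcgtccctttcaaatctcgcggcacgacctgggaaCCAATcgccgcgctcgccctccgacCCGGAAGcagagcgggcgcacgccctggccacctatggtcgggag

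Windows were found for 33 of the 41 members, 40 windows in all. They were compared with all 32851 windows, which were not limited to genes tested here or matched for level or GC content. Their median GC content was 64.5%, with 28 CpG dinucleotides per window, against 52.7% and 7 for all windows. The GC box was in 62.5% of member windows and 35.7% of all, the CCAAT box in 52.5% and 37.4%, and the E-box, the sequence that Myc proteins bind, in 17.5% and 7.15%. The ETS core was in 17.5% and 8.86%, NRF1's motif in 5% and 0.971% (2 member windows) and the TATA box in 10% and 13.6%. Among the 10 windows of the 7 genes that fell, 7 held a GC box, 5 a CCAAT box, 3 a TATA box, 2 an E-box, 0 an ETS core and 0 the NRF1 motif, and both E-box windows, of Ipo7 and Nup188, are printed above. These counts describe letters in a window and were not tested.

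Transcript length varied with the change in opposite directions in the sets. The longest transcript in GENCODE vM21 ran from 1277 bases for Nup37 to 15121 for Xpo7. Across the 41 members, which share libraries and differ in level as well, log2 length and log2 ratio had Pearson r = -0.64 and Spearman rho = -0.57 in set 1, and r = 0.28 and rho = 0.29 in set 2. Across 10218 tested genes with a length the values were r = -0.35 and rho = -0.39 in set 1, and r = 0.18 and rho = 0.23 in set 2, so the signs were those of all genes. In set 1 the correlation was stronger in the 20 nucleoporins (r = -0.76, rho = -0.83) than in the 21 karyopherins (r = -0.23, rho = -0.064). In set 2 it was the weaker one in nucleoporins (r = 0.22, rho = 0.20), against karyopherins (r = 0.48, rho = 0.36), and neither difference was tested. Genes are not independent replicates, and these values are a description.

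The 14 shortest members, up to 4069 bases, had a median log2 ratio of -0.24 in set 1 and -0.32 in set 2. The 14 longest, from 5894 bases, had -0.60 and -0.27. Of all genes in the same ranges of length, the 6920 short ones had -0.35 and -0.38 and the 1428 long ones -0.85 and -0.17. Nucleoporins had a median length of 4184 bases and karyopherins of 5039 bases, and the part of length in the difference between the families was not tested. With each set's trend on length removed, an alternative added after seeing the data, the same 7 members fell (17.1%, against 15.0% of all genes, a share close to that background) and the members' medians were -0.34 in set 1 and -0.38 in set 2. Level moved with the ratio too, with r = 0.34 in set 1 and -0.16 in set 2 across members, and with the trend on level removed only Ipo7 and Kpna2 fell.

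**Figure D3:**
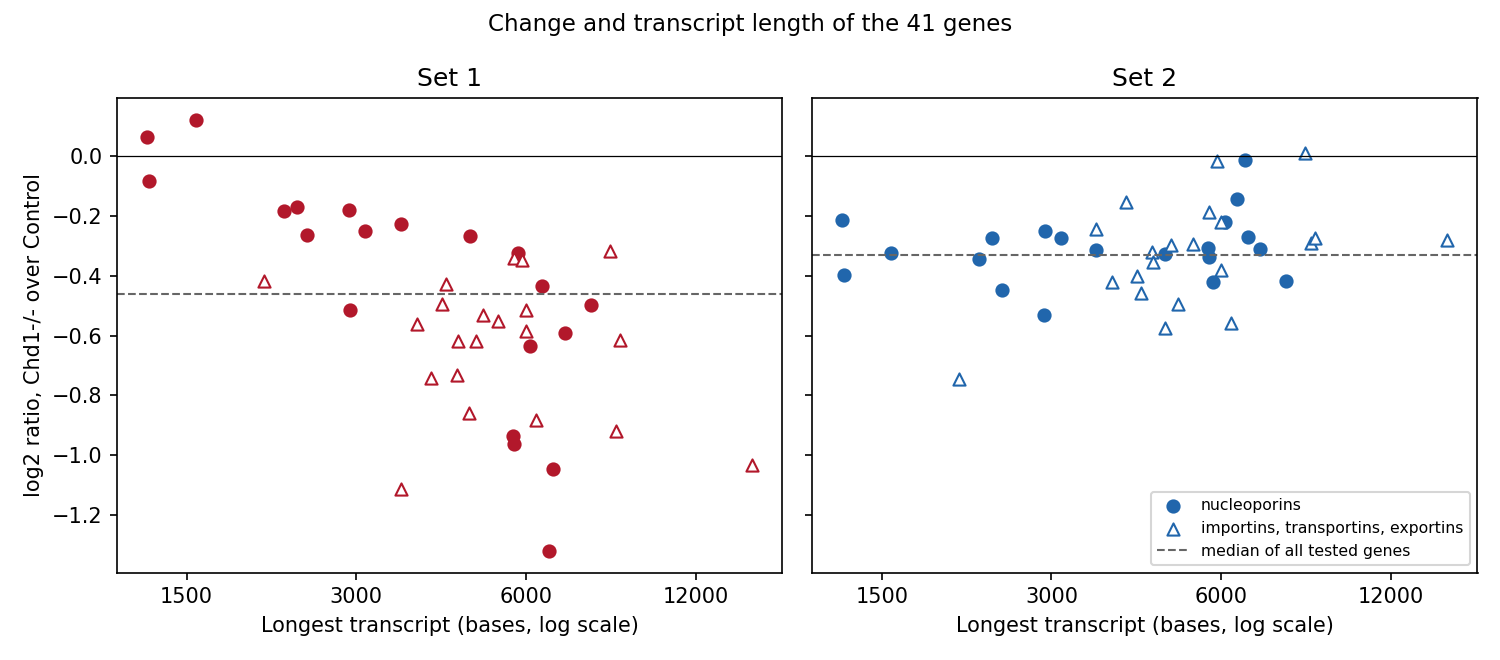
Log2 ratio of Chd1-/- over Control on the deposited scale against the length of the longest transcript (log scale) for 20 nucleoporins (filled circles) and 21 karyopherins (open triangles), in set 1 and set 2. In set 1 the shortest nucleoporin genes lie near 0 and the long ones as low as -1.32, whereas in set 2 most members lie near -0.33 at any length.

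A list of other nuclear transport genes was compared with the members. Of 33 genes listed 29 were tested, of which 4 fell and 0 rose, and 25 had lower values in both sets (17 fell and 0 rose at an unadjusted p under 0.05 in limma). Those that fell were 13.8% of the list, against 9.80% of all genes and 13.5% of genes within the members' range of level, and those lower in both sets were 86.2%, against 72.4% of all genes. An unadjusted p under 0.05 with lower values was found for 28.9% of all genes. In set 1 the median over the list was -0.39 on the log2 scale, and in set 2 it was -0.40, against the members' -0.51 and -0.31. Of 7 genes of the Ran cycle, which sets the direction of transport, 3 fell on the deposited scale (42.9%, against 9.80% of all genes). All 7 were lower in both sets there, as 72.4% of all genes were. Their median minus that of all genes was 0.10 in set 1 and -0.15 in set 2. With each set's median over all genes subtracted, 0 of them passed in limma, where 0.214% of all genes fell and 0.146% rose. Rcc1, the chromatin-bound exchange factor that charges Ran with GTP, stood at 68.2 and 51.0 FPKM in Chd1-/- cells, against 110.8 and 87.0 FPKM in Control cells. It fell by 0.73 (SE 0.17, adjusted p = 0.00190), and by almost as much in each set.

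Rangap1, which activates GTP hydrolysis by Ran at the pore's cytoplasmic side, stood at 106.6 and 99.2 FPKM in Chd1-/- cells, against 136 and 193 FPKM in Control cells. It fell by 0.65 (SE 0.17, adjusted p = 0.00508), mostly in set 2. Its co-factor Ranbp1 stood at 155 and 140 FPKM in Chd1-/- cells, against 198 and 214 FPKM in Control cells, and fell by 0.48 (SE 0.17, adjusted p = 0.0450). With a pseudocount of 1 the count of this list was 3 instead of 4. For Ran itself the log2 fold change was -0.35 (adjusted p = 0.151).

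None of 8 tested pore proteins with other symbols fell in limma, where 9.80% of all genes did. At an unadjusted p under 0.05 in limma 5 were lower, against 28.9% of all genes. Cse1l, the exportin that returns importin alpha to the cytoplasm, stood at -0.47 on the log2 scale (adjusted p = 0.0568). Of 9 tested mRNA export genes 1 fell (11.1%, against 9.80% of all genes), the RNA helicase Ddx39b. It stood at 155 and 163 FPKM in Chd1-/- cells, against 248 and 219 FPKM in Control cells (log2 fold change -0.56, SE 0.17, adjusted p = 0.0203). None of 4 genes of the SUMO pathway passed, where 9.80% of all genes fell, and 1 was lower at an unadjusted p under 0.05 (28.9% of all genes). Eny2, a subunit of the TREX-2 export complex that was singled out after its values were seen, was the 1 gene of the list with higher values in both sets. It was at 32.6 and 24.7 FPKM in Chd1-/- cells and at 30.2 and 20.4 FPKM in Control cells, without passing (adjusted p = 0.486).

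**Figure D4:**
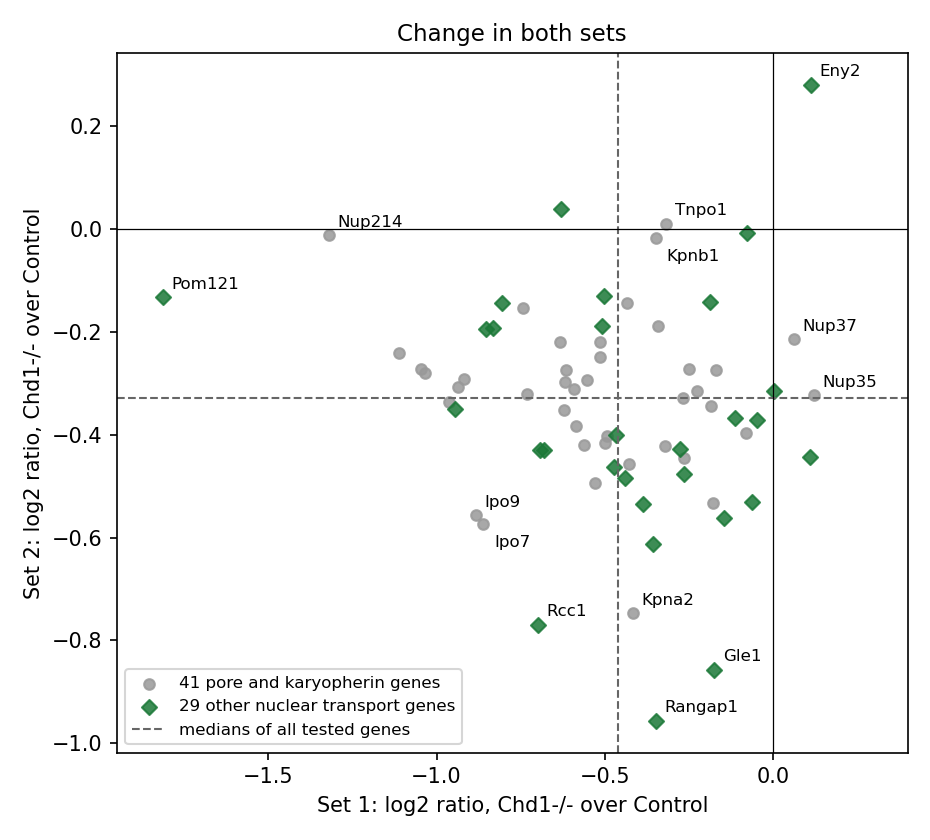
Log2 ratio of Chd1-/- over Control in set 1 (horizontal) and set 2 (vertical) on the deposited scale for the 41 members (circles) and 29 other nuclear transport genes (diamonds), with the medians of all tested genes as dashed lines. Members lie between -1.32 and 0.12 in set 1 and, closer together, in set 2 between -0.75 and 0.010, and with library totals 4 members are lower in both sets; the labels of Eny2, Pom121 and Gle1 were chosen after their values were seen.

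To compare each gene with the other genes of its set, each set's median log2 ratio was subtracted. In limma 0 of 41 members fell and 0 rose relative to the median, where 0.214% and 0.146% of all genes did, shares so low that 0 in 41 says little. At an unadjusted p under 0.05 the count was also 0 of 41, where 6.29% of all genes were. The relative log2 changes ran from -0.33 for Ipo9 (adjusted p = 0.998) to 0.32 for Nup37 (adjusted p = 0.983). Below the median in both sets were 9 members (22.0%, against 24.6% of all genes), and above it in both sets were 10 (24.4%, against 24.6%).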

How the data were processed

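Chd1-/- and Control libraries of 2 sets were compared. The deposited values were taken as FPKM, 1 table per set. The headers name no unit, and it was inferred from the values and the tools used. Those tools, per the submitters' processing notes, include Cufflinks 2.2.0 with Cuffdiff, and TopHat2 2.0.10, with build mm9. How the spike-ins entered the scaling is not given in the sources used here, so a change per cell rests on the deposited scaling. The deposited ratio column equalled the quotient of the value columns to within 4.97e-06. Read depth is unknown.

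Genes were joined by symbol, leaving out loci without a symbol, merged loci and repeated symbols, and needed a mean of at least 1 FPKM. Limma 3.58.1 in R 4.3.3 was fitted to log2(FPKM + 0.1) with a variance trend and set as a block, two-sided. The fit had 1 residual degree of freedom and prior degrees of freedom of Inf. A gene's own spread therefore enters its p-value only as part of the trend over all genes. An exact sign-flip test on 2 pairs cannot go below p = 0.5. The sets were deposited as separate tables, and 2 lines are named in the protocol, so set was a block. Libraries of a set deviated together from their group means (r = 0.483 across genes). Members, lists and the rule for named genes (those called, and the extremes of level, change and difference between sets) were chosen with earlier results of these data known. Lengths came from GENCODE vM21 and promoter windows from RefSeq. A further exportin gene is not reported here.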

Additional observations from a re-analysis of the deposited data

Results flagged for a closer look

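In 3 members the log2 ratio of Chd1-/- over Control had opposite signs in the sets, which may be different lines, and this difference was not tested. Tnpo1 had -0.32 in set 1 and 0.010 in set 2. Nup35 had 0.12 in set 1 and -0.32 in set 2. Nup37 had 0.064 in set 1 and -0.21 in set 2. Opposite signs occurred in 24.8% of all genes tested, against 7.32% of the members.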

How the results depend on the processing

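The 7 members that fell were 17.1% of members, against 9.80% of all genes. Their count was 1 with a mean of at least 5 FPKM (2.5% of 40 members, against 3.28% of all genes). It was 2 with the level trend removed (4.88%, against 6.25%). Under both settings the members' share was close to that of all genes. The count was 0 with no replicate block and with one common prior variance, where 0% of all genes fell. With library totals it was 0 as well, where 0.361% of all genes fell. It was 7, with the same genes, with pseudocounts of 1 and 0.01, with no filter on low values and with the length trend removed. The 4 fallen genes of the other transport list became 1, 0, 0 and 0 with a mean of at least 5 FPKM, no replicate block, one common prior variance and library totals, and 7 with the length trend removed. Chd1 kept its log2 fold change of -1.66 but did not pass without the block (adjusted p = 0.461) or with one common prior variance (adjusted p = 0.288). In this balanced design, leaving out the block cannot alter a log2 fold change on the deposited scale, so no direction could change. At an adjusted p of 0.05 in limma, 0 members rose and 0 changed relative to the median under each setting run, and at an unadjusted p under 0.05 the count relative to the median was 1 with the level trend removed, 1 with the length trend removed and 0 under the other settings.

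With library totals the median of all genes was -0.14 in set 1 and 0.14 in set 2, with a mean of -0.0021, 4 members were lower in both sets and the members' median was -0.016. The medians of the outer ring (0.12), the group named central channel (0.15, with Nupl2) and the nuclear basket (0.035, 2 genes) then turned positive. Those of the inner ring (-0.014), importin alpha (-0.0045), importin beta family (-0.043) and exportins (-0.059) came close to 0. Nup210, the 1 membrane gene, was at -0.057. Of the 2 cytoplasmic-side genes, Nup214 stood at -0.28 and Nup88 at 0.043 with library totals. Their median was -0.12, against -0.51 on the deposited scale. The members' median minus that of all genes was -0.018; it was 0.018 without replicate 1 and -0.054 without replicate 2, 0.027 with the length trend removed and -0.078 with the level trend removed. The outer ring's median was -0.35 with the level trend removed and the inner ring's -0.19 with the length trend removed. Leaving out a set leaves 1 pair, a value with no test, so counts of calls were not run for it. The unknown read depth limits what can be said of the low genes, such as Nup214.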

Other observations

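The loci that could not be paired had these values. The locus that merges Nup62 with its neighbours was at 82.6 FPKM in Chd1-/- cells, against 100.4 FPKM in Control cells in set 1, and at 58.0 FPKM in Chd1-/- cells, against 80.3 FPKM in Control cells in set 2. Nup62cl stood at 31.6 FPKM in Chd1-/- cells, against 41.4 FPKM in Control cells in set 1. In set 2, where it was merged with Rbm41, the locus stood at 15.5 FPKM in Chd1-/- cells, against 25.05 FPKM in Control cells. Nup210l was at 0.489 FPKM in Chd1-/- cells, against 1.55 FPKM in Control cells in set 1. Its 3 loci in set 2 were at 0.127, 1.23 and 2.60 FPKM in Chd1-/- cells, against 0.147, 4.23 and 3.08 FPKM in Control cells.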
